A study of Rattus norvegicus with 8 samples.

Results

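Cytosolic ribosomal proteins are the protein components of the ribosomes that translate messages in the cytoplasm. Their genes were found by name, as probe sets annotated to a single gene whose symbol begins with Rpl or Rps and a digit, or is Rplp0, Rplp1, Rplp2 or Rpsa. Genes of the Rps6k kinases were left out. The rule found 57 probe sets of 50 genes, 34 with large subunit names and 16 with small subunit names, among 14217 genes named on the array. Of the 50 genes, 46 were measured, which means that a probe set lay above the median of its array on at least 2 of 8 arrays. A further 36 probe sets name several genes, at least 1 of them a ribosomal protein gene, and are no members. Rplp1, Rplp2, Rps27a, Rps14 and Rps19 have no probe set that names them alone.

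The arrays measured total RNA of rat granulosa cells, which surround the oocyte in the ovarian follicle and make oestradiol. In the study, immature rats received eCG, a gonadotropin that makes follicles grow, and 24 h later either anti-eCG antibody, which induces atresia (degeneration of the follicle), or pre-immune serum. The labels of the 8 arrays give a number and no treatment, so no array could be assigned to either treatment, and strain, age in days and animals per array are not given in the sources used here. No comparison between treatments was made. What follows gives values and spread over arrays, and the precision is limited by the number of arrays. Each array goes by the number on its label. Where 8 values are given, they follow the order 2074, 2076, 2194, 2195, 2196, 2197, 2198 and 2199.

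A ribosome joins a small subunit, which reads the message, to a large subunit, which forms the peptide bonds. Each ribosomal protein is generally needed in equal number, and cells make these proteins in matched amounts. Many of the messages begin with a C followed by a run of C and T (U in the RNA), the terminal oligopyrimidine tract, through which mTOR signalling and the RNA-binding protein Larp1 control their translation. Ribosome production is costly and rises in growing cells, and granulosa cells divide rapidly in a growing follicle. Array signals measure message levels, not ribosomes or translation.

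The starts of the genes that the results below turn on are shown first. Each sequence holds the 15 bases before the annotated start of transcription and the 20 bases that begin with it, 5′ to 3′ on the strand of the gene, as RefSeq gives it on GRCr8. Capitals mark the longest run of C or T that has at least 5 of its bases within 10 bases of that start. These 7 genes were higher on arrays 2074 and 2076 than on all other arrays:
Rpl3: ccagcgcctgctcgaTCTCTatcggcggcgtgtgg
Rpl4: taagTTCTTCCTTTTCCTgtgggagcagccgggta
Rpl11: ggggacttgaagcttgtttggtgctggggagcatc
Rpl14: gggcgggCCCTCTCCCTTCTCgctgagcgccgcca
Rpl18: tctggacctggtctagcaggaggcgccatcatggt
Rpl19: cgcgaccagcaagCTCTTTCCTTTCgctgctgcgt
Rplp0: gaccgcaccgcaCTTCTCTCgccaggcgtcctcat
These 4 were lower on arrays 2074 and 2076 than on all other arrays:
Rpl13a: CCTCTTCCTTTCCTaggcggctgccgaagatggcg
Rps3: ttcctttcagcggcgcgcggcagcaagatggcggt
Rps16: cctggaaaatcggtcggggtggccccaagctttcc
Rps23: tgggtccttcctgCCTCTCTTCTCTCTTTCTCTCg
In these 4, array 2195 was highest and stood apart from the others by Dixon's ratio for a distant value:
Rpl5: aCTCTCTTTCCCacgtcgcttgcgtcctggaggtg
Rpl12: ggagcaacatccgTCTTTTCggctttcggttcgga
Rpl27a: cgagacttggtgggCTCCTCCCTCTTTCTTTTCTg
Rps3a: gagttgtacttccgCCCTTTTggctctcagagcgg
The windows lie for Rpl3 at chr7:113507971-113508005 (minus strand), Rpl4 at chr8:73566462-73566496 (plus strand), Rpl11 at chr5:153560783-153560817 (minus strand), Rpl14 at chr8:129163605-129163639 (plus strand), Rpl18 at chr1:105325255-105325289 (plus strand), Rpl19 at chr10:83519049-83519083 (plus strand) and Rplp0 at chr12:46718371-46718405 (minus strand). Those of the second set lie for Rpl13a at chr1:104748894-104748928 (minus strand), Rps3 at chr1:163195757-163195791 (minus strand), Rps16 at chr1:92770643-92770677 (plus strand) and Rps23 at chr2:23814502-23814536 (plus strand). Those of the third set lie for Rpl5 at chr14:1995206-1995240 (minus strand), Rpl12 at chr3:36661925-36661959 (plus strand), Rpl27a at chr1:172974558-172974592 (plus strand) and Rps3a at chr2:173827023-173827057 (minus strand). Rpl23a and Rpl37a, which belong to the first and second set by their values, have no entry in the sequence table.

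The run of C and T was present in 5 of the 7 genes shown first, in Rpl13a and Rps23 of the second set, and in all 4 of the third. Over the 41 member genes with an entry, 27 (65.9%) held such a run, against 31.4% of 21842 protein-coding starts in the same table. This definition was chosen after the sequences had been seen. The narrower definition, a C at the annotated start followed by at least 4 of C or T, was met by 11 of the 41 members (26.8%) and by 2.52% of all starts. Annotated starts can lie several bases from the true one, so a missing match says only that these letters are not at this place. In the 300 bases from 250 before to 50 after the start, on both strands, CCGGAAG was found in 10 members (24.4%, against 10.7% of all starts). AAGATGG was found in 8 (19.5%, against 7.29%), and TATAAA in 6 (14.6%, against 13.0%). A match describes the letters and is no evidence of a bound factor.

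Ribosomal protein genes gave strong and mostly steady signals. Of the 46 measured members, 42 lay above the median of the array on all 8 arrays, and 36 were among the 1051 genes that form the brightest 10% of the 10501 measured. Spread was described by the inner range, the second highest over the second lowest of the 8 arrays. It reached at least 2-fold in 8 of the 46 measured members (17.4%), against a background of 29.7% of all measured genes and 18.6% of the brightest 10%. The median log2 inner range was 0.55 (1.46-fold) in the members, 0.78 in all genes and 0.59 in the brightest 10%. Among the 36 members in the brightest 10%, 4 reached 2-fold (11.1%), to be set beside the 18.6%. By subunit, it was reached by 6 of 31 large and by 2 of 15 small subunit genes. The 8 genes were Rpl37-ps2 (2.38-fold), Rpl11 (2.22-fold), Rplp0 (2.16-fold), Rpl28 (2.12-fold), Rpl4 (2.09-fold), Rpl39 (2.02-fold), Rps15a (2.01-fold) and Rps13 (2.01-fold). Just outside lay Rps4y2 (at least 1.94-fold), Rpl19 (1.88-fold) and Rpl26l1 (1.86-fold). Without array scaling, or with quantile normalization, 5 members reached 2-fold. Leaving out 1 array makes inner ranges narrower by construction, and the count then was 2 without array 2074, 4 without array 2076 and 5 without any single one of the other 6. The share of all genes then lay between 18.7% and 25.1%.

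**Figure D1:**
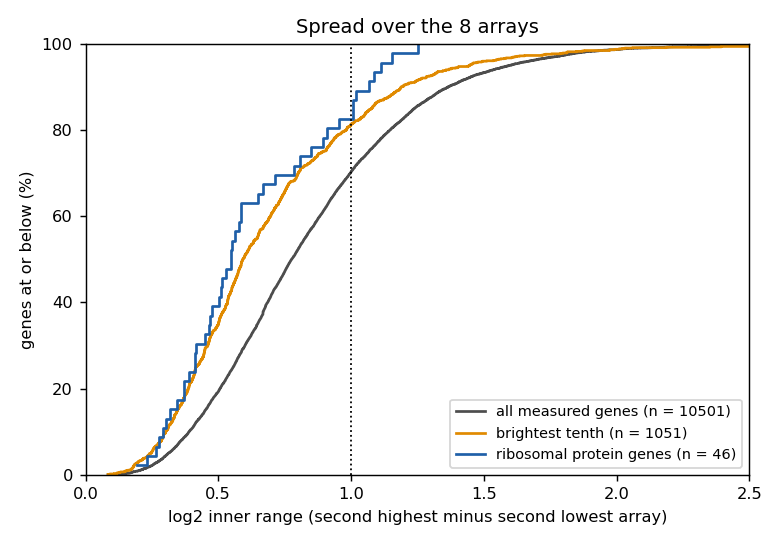
Cumulative share of genes (vertical axis, percent) at or below a given log2 inner range over the 8 arrays (horizontal axis), for all 10501 measured genes, the 1051 genes of the brightest 10% and the 46 measured ribosomal protein genes. The dotted line marks 2-fold. The curve of the ribosomal protein genes runs near that of the brightest 10% and left of that of all genes, and it ends at 2.38-fold.

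The arrays differed in ways that bear on these genes. Label numbers leave a gap between 2076 and 2194, and values of arrays 2074 and 2076 are set beside those of the other 6 for that reason. It is a gap in numbers, not a treatment. The signal of the 3′ end of beta-actin over its 5′ end, a sign of RNA integrity and labelling, was 10.99 and 12.1 on arrays 2074 and 2076, while the 6 remaining arrays had 4.67 to 8.08. For GAPDH it was 6.66 and 6.07, within the 5.27 to 8.81 of the other 6. The erythroid list was represented by 2 measured genes, Hbb and Alas2, neither at the floor on every array. Its summed signal was 48806 on array 2074 and 13219 on array 2076, above the 3799 to 10329 of the other 6. Array 2195 had the highest floor, the level below which signals were not read (472, the others 274 to 385). Granulosa markers were measured for all 8 genes named, Cyp19a1, Inha and Foxl2 among them, with summed signals of 254934 to 316413. Over the arrays, macrophage markers (7 of 8 measured) summed to 5130 to 9997, and theca and stroma markers (8 of 9) to 3447 to 7972. Sums of different lists come from different probe sets and are not compared. In bulk RNA, fewer cells of a type and less RNA per cell cannot be told apart.

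Large subunit genes made up all 8 members that were higher on both arrays 2074 and 2076 than on any of the other 6 arrays. The background for this position was 13.6% of all measured genes and 13.2% of the brightest 10%, and the members' 8 of 46 make 17.4%. Rpl4, whose protein lines the tunnel through which the new peptide leaves, gave 73352, 70129, 34182, 37489, 33487, 41243, 37841 and 31284. The pair did not overlap the other arrays, whose highest value was 41243. Rpl11, which with Rpl5 carries the smallest ribosomal RNA of the large subunit and can bind Mdm2, the ubiquitin ligase of p53, gave 66288, 75064, 29435, 44152, 29881, 43662, 37917 and 29819. Rplp0, the base of the stalk that recruits elongation factors, gave 29059.9, 25797, 13315, 15122, 10902, 13254, 16616 and 11929. These 3 were also the members whose inner range depended most on the pair. Without array 2074 or array 2076, it was 1.24-fold in Rpl4, 1.47-fold and 1.48-fold in Rpl11, and 1.39-fold in Rplp0.

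The other 5 genes of this set differed less between arrays. Rpl19 gave 68976 and 73972 on the pair and 35978 to 54611 on the other 6 (1.88-fold). Rpl14 gave 23588 and 20408 on the pair against 11038 to 16517 (1.80-fold). Rpl3, a protein close to the site of peptide bond formation, gave 127865 and 125633 against 67619 to 98051 (1.44-fold). In Rpl3 the pair was well clear of the other arrays on this probe set, while the other measured one, much weaker, was highest on array 2197. Rpl18 gave 105062 and 109391 against 57199.5 to 97225 (1.501-fold). Rpl23a, at the exit of the peptide tunnel where the signal recognition particle docks, gave 51405 and 60902 against 30968 to 48914 (1.42-fold). The lower value of the pair was farthest ahead of the next array in Rpl4 and closest to it in Rpl23a. The beta-actin ratio and the erythroid sum were also highest on this pair, and their part in these values was not tested.

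Members lower on both arrays 2074 and 2076 than on any other array numbered 5, 2 large and 3 small subunit genes. The background was 14.6% of all measured genes and 32.7% of the brightest 10%. Rpl37a, a small zinc-binding protein of the large subunit, gave 30062, 51125, 96470.5, 60396, 70556, 72927, 76259 and 68811, so that array 2074 was lowest and array 2076 next. Rpl13a, which apart from the ribosome takes part in silencing of inflammatory messages, gave 58159.6 and 81389 against 82597 to 123385. There array 2076 came within a few percent of the next array. Rps3, at the entry of the message channel, gave 66625 and 71536 against 92261 to 109301 (1.46-fold). Rps16 gave 44480.3 and 47125 against 54486 to 65768 (1.33-fold). Rps23, a protein of the decoding centre, gave 160136 and 158258 against 178814 to 300984 (1.37-fold). The small subunit genes thus had none in the upper set and 3 in the lower set under these settings. The shares of all genes above or below on this pair were counted under these settings only. Without scaling, 11 members were above (10 large, 1 small) and 4 below, and the counts above were the same after quantile normalization. The statement that no small subunit gene was above does therefore not hold under these scalings. Nor does it hold when the _x_at and _s_at probe sets were left out (1 small subunit gene above). When any 1 of the 8 arrays was left out, 1 or 2 were above. Fewer arrays are then compared, which makes this position easier to reach by construction, so these counts do not test the statement.

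**Figure D2:**
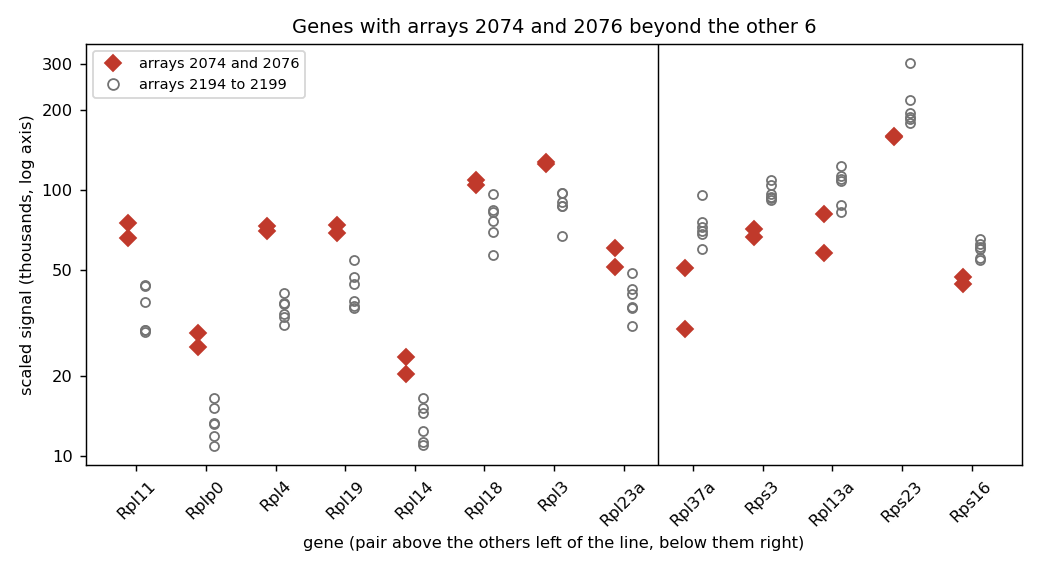
Scaled signal (logarithmic vertical axis) of the member genes whose values on arrays 2074 and 2076 were both outside the range of the remaining 6, 1 point per array. The 8 genes above, Rpl4, Rpl11 and Rplp0 among them, are all of the large subunit, and the 5 below are Rpl37a, Rpl13a, Rps3, Rps16 and Rps23.

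Small subunit genes were most often highest on array 2195. This array was the highest in 17 of the 46 members (37.0%), against 23.7% of all measured genes and 18.6% of the brightest 10%, and in 9 of the 15 small but 8 of the 31 large subunit genes. Rps3a, a protein on the solvent side of the small subunit, gave 107037, 99047, 97589, 177267, 115029, 118669, 109046 and 98008. The 7 other arrays lay within 97589 to 118669, and array 2195 stood apart from them. Rps23 was also highest there, at 300984, and Rps28 gave 126486 there against 54963 to 92864 on the other arrays. Rps6, the classic substrate of the S6 kinases, ran from 88589 to 143167 around a median of 110165, with array 2195 highest. Rpsa, which is needed for small subunit maturation and was first named as a laminin receptor, had an inner range of 1.23-fold. On this probe set, of the _s_at type, its lowest value, 38983, was on array 2194 and its highest, 64677, on array 2195. The next brightest probe set of Rpsa was highest on array 2076 instead, with 31319.5 (1.85-fold), and its weakest on array 2195. Of the 36 probe sets that name several genes, 20 were highest on array 2195 too. These were not limited to the small subunit: some name large subunit genes, such as Rpl31 and Rpl32, and some small ones, such as Rps26 and Rps18. With quantile normalization the count on array 2195 fell to 12 members, 5 of them small subunit genes. Without scaling it was 15, of which 8 were small subunit genes. The share of all genes was not counted under those scalings. Array 2195 also had the highest floor and the highest summed lymphocyte (2656, the others 588 to 1855), endothelial, oocyte and epithelium markers (3 of 6, 2 of 4, 3 of 6 and 1 of 4 named genes measured). These sums rest on few genes. The epithelium sum was Epcam alone, 673 on array 2195 with a floor of 472 and 642 on array 2199 with a floor of 314. The part of the floor and of these markers in the values of the members was not tested.

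The 10 steadiest members by inner range came from both subunits, with Rps3a, Rpsa and Rps6 among them. The following are of the large subunit, which held 31 of the 46 measured members. Rpl5, the partner of Rpl11, gave 77726, 79037, 74258, 121901, 74835, 84866, 77252 and 69364, the smallest inner range of all members (1.14-fold). Its values lay close together on 7 arrays, with array 2195 above them. Rpl12, at the base of the stalk, had an inner range of 1.17-fold around a median of 22776, with 34305 on array 2195. Rpl27a ran from 40211 to 82617, with an inner range of 1.29-fold and its highest value on array 2195. Rpl23 (1.202-fold), Rpl7 (1.23-fold) and Rpl35a (1.27-fold) were also among the 10 smallest inner ranges. Rpl7 was highest on array 2197, with 84914, and ran down to 61995, so not all steady members peaked on array 2195.

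At the other end, array 2199 was the lowest in 16 members (34.8%), against 12.4% of all measured genes and 22.6% of the brightest 10%. These were 12 large and 4 small subunit genes. Rpl27, for example, gave 24139 there and 30905 to 44968 on the other arrays. Rpl7a went the other way, with its highest value of 233899 on array 2199 and its lowest of 101358 on array 2074 (inner range 1.75-fold). With quantile normalization array 2199 was lowest in 7 members, and the share of all genes was not counted under that scaling. In 5 members 1 array lay beyond the critical value of Dixon's ratio for a distant value, against 6.01% of all measured genes. They were Rpl5, Rpl12, Rpl27a and Rps3a, high on array 2195, and Rps27l, low on array 2074.

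Averaged over members, the 2 subunits followed each other on most arrays. The list score of an array averages, across members, how far each gene lay on the log2 scale from its own median over arrays. It was -0.05, 0.20, -0.14, 0.27, 0.06, 0.02, -0.04 and -0.17 for all 46 members, an inner range of 0.34. For the 31 large subunit genes it was -0.03, 0.25, -0.14, 0.19, 0.04, 0.03, -0.07 and -0.16. For the 15 small subunit genes it was -0.10, 0.10, -0.13, 0.45, 0.09, -0.01, 0.00 and -0.18. With this scaling both subunits were high on arrays 2076 and 2195 and low on arrays 2194 and 2199. The small subunit scored above the large on array 2195 and below it on arrays 2074 and 2076. Of the 46 members, 36 lay above their own median on array 2195, 35 on array 2196 and 31 on array 2076, but only 8 on array 2194 and 10 on array 2199. Of the 10501 measured genes, 6437, 4880, 4762, 5494 and 5027 lay above their own median on these 5 arrays in turn, and of the 1051 in the brightest 10%, 580, 652, 420, 602 and 370. The same score over the brightest 10% of genes was -0.23, -0.14, 0.04, 0.03, 0.05, 0.10, 0.00 and -0.13. Over all measured genes the score was 0.17 on array 2195. Scaling moved these values. With quantile normalization, which shifted the median of all genes by up to -0.11 (on array 2195), the members' score was 0.09 on array 2074, 0.22 on array 2076 and 0.08 on array 2195, and the small subunit's on array 2195 was 0.17. On array 2199 it was then -0.03 for the members, and the large subunit had 0.03 on array 2195. The sign on array 2074 therefore turned with the scaling (0.01 without scaling). Without array 2076 the inner range of the large subunit score was 0.17 instead of 0.32.

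**Figure D3:**
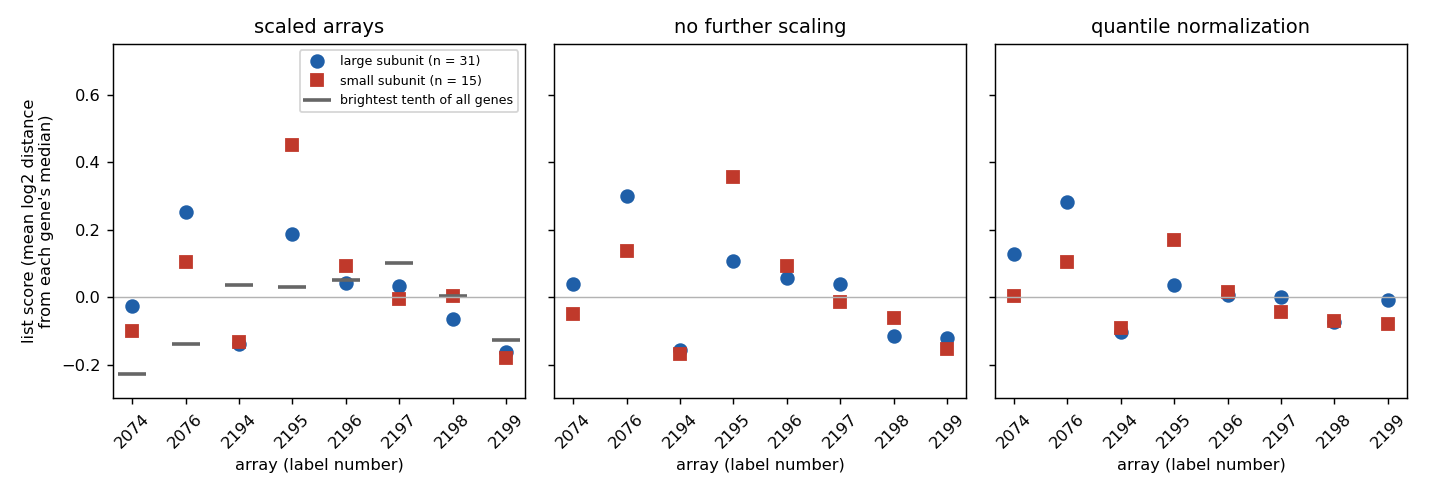
List score (vertical axis, mean log2 distance of members from their median over arrays) on each array (horizontal axis) for the 31 large and 15 small subunit genes, with scaled arrays, without scaling and with quantile normalization. Horizontal bars in the left panel give the brightest 10% of all genes. The small subunit stands at 0.45 on array 2195 with scaled arrays and at 0.17 there with quantile normalization.

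The other members with an inner range of at least 2-fold did not all have their extremes on the same arrays. Rps15a gave 23321, 31334, 9314, 23373, 15895, 15525, 14706 and 11620, highest on array 2076 and lowest on array 2194. Rpl39, a very small protein of the exit tunnel, gave 2511, 3330.5, 5083, 5022, 4681, 1157, 5121 and 4518. Its low value on array 2197 lay apart, and the other low values were on arrays 2074 and 2076. Rpl28 ran from 363 on array 2074 to 1599 on array 2195 around a median of 642. Rps13 ran from 611 on array 2199 to 1532 on array 2076 around a median of 882. Both were measured here by a probe set of low signal, near the floor of 274 to 472. A probe set that names Rpl28 together with other genes gave 48832 to 70676, and one that names Rps13 with copies of it gave 49651 to 71547. Rpl41, which encodes the shortest protein of the ribosome and had an inner range under 2-fold, gave 59213 on array 2076 and 29090 to 45403 on the others.

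The members also include paralogs and pseudogenes. Rpl7l1, a paralog of Rpl7, was among the steady ones, with 5588 to 7369 over the 8 arrays (1.25-fold). Rps27l, a paralog of Rps27 that p53 can induce, gave 570.0 on array 2074, with a median of 1245 and a highest value of 1529. Array 2074 stood below the other arrays. Rpl26l1 ran from 481 to 1371 (1.86-fold) and was highest on array 2199. Rpl37-ps2, named as a pseudogene, ran from 534 on array 2195 to 2216 on array 2197 (2.38-fold). Rps4y2 ran from 63.4 to 768 and was at the floor on 3 arrays. The probe sets of Rpl30 (39.7 to 440.4), Rpl39l1 (105 to 655), Rpl3l (28.6 to 289) and Rps4x-ps1 (16.8 to 248) were not measured, so no order over arrays can be read. A probe set of a paralog or pseudogene may also bind the message of a close copy, and the protein sequences of these pairs were not analysed here.

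**Figure D4:**
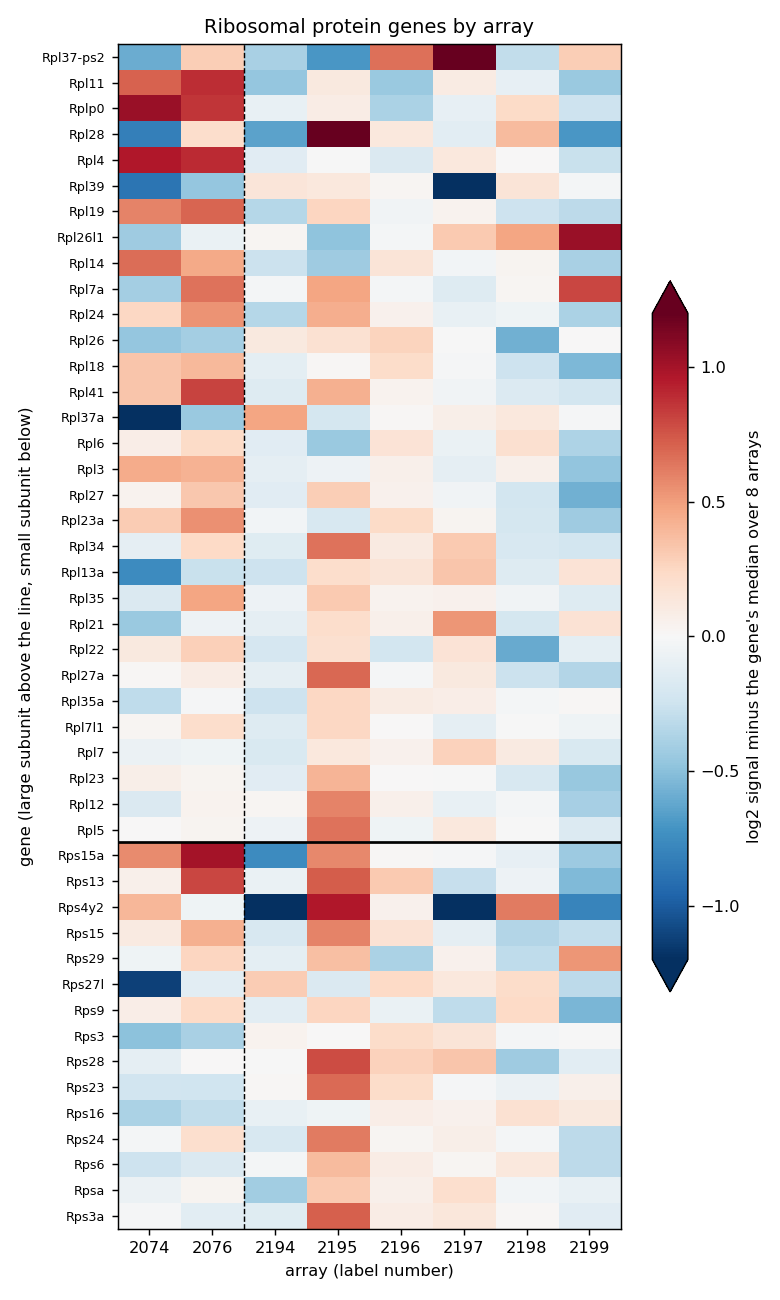
Log2 distance of each of the 46 measured members (rows, by subunit) from its median over arrays, on each of the 8 arrays (columns), drawn before the floor, which changes only Rps4y2. Red cells are above and blue cells below the gene's median. Array 2195 is high in most small subunit rows, and Rpl4, Rpl11 and Rplp0 are high on arrays 2074 and 2076.

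The probe set chosen mattered for the spread of a gene. In the 5 members with at least 2 measured probe sets, the brightest probe set and the next differed in log2 inner range by a median of 0.51. Rpl3 had a log2 inner range of 0.53 on its brightest probe set and 1.73 on the next, which was of the cross-hybridising _x_at type. For Rpl7 the values were 0.30 and 0.81, for Rpl7l1 0.32 and 0.80, and for Rpsa 0.29 and 0.88. In Rps24 both were 0.39 to 2 decimals. The 36 probe sets that name several genes gave a median log2 inner range of 0.52, with 3 of 36 (8.33%) at 2-fold. Of the 36, 6 lay above the others on both arrays 2074 and 2076 and 5 below, beside 13.6% and 14.6% of all measured genes. The 6 included the probe set for Rplp1 and its copies, the stalk partner of Rplp0, which ran from 27475 to 53025 with array 2076 highest. They also included probe sets that name small subunit genes, among them Rps2, Rps19 and Rps10 (the last together with Rpl30). A brighter probe set that names Rps2 was not among them, and was highest on array 2195 (1.11-fold). The higher values on this pair were therefore not limited to large subunit genes once these probe sets are counted.

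Elongation factors such as Eef2 work with the stalk of the large subunit. The list used here was taken by symbol and includes Eef2k, a kinase, and Eef1e1, which are not elongation factors themselves. Of 8 measured genes of this list, 3 reached 2-fold (37.5%), against 29.7% of all measured genes. All 3 were higher on arrays 2074 and 2076 than on the other arrays, a position that 13.6% of all measured genes held. Eef2, the translocase that the stalk recruits, gave 43002 and 39559 on that pair against 9299 to 14304 (4.02-fold, and 1.46-fold without array 2074 or 2076). Eef1g gave 29407 and 30632 against 11839 to 16644 (2.24-fold, and 1.26-fold without array 2074 or 2076). Eif5a had 3.47-fold (1.91-fold without array 2074 or 2076), whereas Eef1a1, which delivers aminoacyl-tRNA, had 1.38-fold. The list score of the elongation factors was 0.42 on array 2074 and 0.52 on array 2076, beside -0.05 and 0.20 for the ribosomal protein genes. Ribosome assembly factors had 5 of 38 at 2-fold (13.2%, against 29.7% of all measured genes), led by nucleolin (Ncl). It gave 17643 on both arrays of the pair and 2242 to 5286 on the others (6.25-fold, and 1.87-fold without array 2074 or 2076). The assembly factor scores were -0.08, 0.28, -0.03, 0.21, -0.05, 0.09, -0.10 and -0.17. On arrays 2076 and 2195 the ribosomal protein genes had 0.20 and 0.27, and on arrays 2194 and 2196 they had -0.14 and 0.06. All measured genes had 0.17 on array 2195.

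Of the initiation factor genes, 2 of 32 reached 2-fold (6.25%, against 29.7% of all measured genes). Eif2b2 had the widest range there, at least 3.24-fold with 3 arrays at the floor. Of 13 genes of RNA polymerase I transcription, which makes ribosomal RNA, 1 reached 2-fold. It was Ubtf, which gave 758 and 1227 on the pair while the other arrays gave 2393 to 3325 (2.59-fold, and 1.32-fold without array 2074 or 2076). Myc, a driver of ribosome production, had 1.47-fold. Among 19 genes listed for mTOR, the Rps6k kinases and the control of oligopyrimidine messages, 6 reached 2-fold (31.6%). That is near the 29.7% of all measured genes. Rps6ka3 was lower on the pair (3.46-fold, and 1.22-fold without array 2074 or 2076), as was Larp1, which ran from 4417 on array 2076 to 22619 on array 2195 (2.25-fold, and 1.32 to 1.40-fold without array 2194, 2195, 2196 or 2197). Mtor had 1.45-fold and Rps6kb1 1.69-fold. Rack1, a scaffold on the small subunit outside the naming rule, had 1.33-fold, from 41864 to 61741.

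Genes of other large complexes were set beside them, and beside the 29.7% of all measured genes that reached 2-fold. The mitochondrial ribosomal protein genes had 10 of 72 at 2-fold (13.9%) and a median log2 inner range of 0.52, led by Mrpl38 (4.01-fold, and 2.46-fold without array 2074 or 2076). In 26 of the 72 the pair lay beyond the other 6 arrays, 13 above and 13 below. In the cytosolic set it was 13 of 46, and in all measured genes 28.2%. The proteasome list, taken by symbol, had 7 of 37 at 2-fold (18.9%), led by Psmb9 (3.26-fold, and 2.14-fold without array 2196 or 2197). Psmc3ip, which is not a proteasome subunit, matched the symbols and is counted in this list and its score (2.82-fold). The respiratory chain had 11 of 84 (13.1%), led by Atp5f1d (3.49-fold, and 1.29-fold without array 2074 or 2076). On array 2195 the score was 0.08 for mitochondrial ribosomal proteins, -0.10 for the proteasome and 0.14 for the respiratory chain, beside 0.27 for the cytosolic ribosomal proteins. On array 2199 all 4 were below 0.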

How the data were processed

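Total RNA of granulosa cells was labelled with biotin and hybridised to Affymetrix rat arrays, 1 per sample, per the labels. The authors' deposited values are linear signal intensity from MAS5, per the submitters' processing notes (version not given in the sources used here). All arrays shared a 2% trimmed mean of 1500.5 to 1500.6, so a common scaling preceded deposit. MAS5 treats each array alone and is noisy at low signal.

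The deposited signals were turned into log2 values. Arrays were then brought to the same median over those probe sets that exceeded the array's median on each of the 8. Values under an array's 40th percentile were set to it (the floor). Signals are printed without the floor, while ranges include it. The brightest measured probe set stood for a gene. Of 31099 probe sets, 57 were controls, 20832 had 1 gene symbol (6 of them controls), 436 had several and 9831 were not listed in the platform annotation, which can be old. By gene identifier 55 of the 57 member probe sets were found in the RefSeq table of GRCr8, with 0 symbols changed. Start sequences come from a RefSeq promoter table of that assembly and were matched for 41 of the 50 members. Signals of different probe sets do not give an order of abundance.

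All 8 arrays were left unassigned and no array was placed by number, order or value. No test between groups was run and no mean over arrays is given. SDs over arrays served only to judge whether a value moved under another setting. Named were the 10 members with the widest and the 10 with the narrowest inner range, paralogs, the stalk, members with a known further role, and the widest gene of each companion list. Members named because arrays 2074 and 2076 lay beyond the others, or for their value on array 2195 or 2199, and Rpl41, Rps24, Rps28, Rpl7a, Rpl26l1, Rpl27, Eef1g and Eif5a, were added with their values seen. The members, lists and measures were chosen with earlier results of these data known. Tried besides were no scaling, quantile normalization, a lower floor (25th percentile), no floor, a stricter or no filter, the mean of probe sets, no _x_at or _s_at probe sets, the full range, paralogs left out, and each array left out in turn. Chosen after seeing the data were the analysis of arrays 2194 to 2199 alone, the pseudogene left out, probe sets naming several genes, the brightest 10% as background and the small subunit score on array 2195. Distant arrays were picked out by Dixon's ratio at its critical value for 8 values. The computation of the inner range and the score was tested on simulated data. Python 3.11.15, numpy 2.4.6 and pandas 2.3.3 were used.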

Additional observations from a re-analysis of the deposited data

Results flagged for a closer look

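Of the 46 measured members, 5 had 1 array far from the other 7 by Dixon's ratio, where chance flags about 1 in 20 genes and 6.01% of all measured genes were over it. In 4 of them the array was 2195 and its value the highest, with ratios of 0.6724 in Rps3a, 0.6423 in Rpl5, 0.5543 in Rpl27a and 0.5406 in Rpl12. In Rps27l it was array 2074, lowest at 570.0, with a ratio of 0.5696. The score of the 15 small subunit genes was also far from the others on array 2195, with a ratio of 0.5489 and a score of 0.45. The ratio of Rpl39, low on array 2197, was 0.521, just inside the limit.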

How the results depend on the processing

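Of 134 main values under 20 settings 18 moved beyond the limits set for them. All except those of the small subunit score on array 2195 were counts or ranges, which cannot change sign. That score stayed positive. The limits were 1.5 times for a count and the spread over arrays or members for others. Apart from these values, the members' score on array 2074 did change sign, from -0.05 to 0.01 without scaling and 0.09 with quantile normalization, and the large subunit score there from -0.03 to 0.04 and 0.13. Members at 2-fold, 8 in the report, numbered 5 without scaling (29.3% of all genes), 5 with quantile normalization (27.6%), 19 with the full range (71.4%), and 2 over arrays 2194 to 2199 alone (11.9%). With 1 array left out they numbered 2 to 5. The median log2 inner range was 0.95 with the full range. The inner range of the members' score was 0.16 with quantile normalization. That of the large subunit score was 0.17 to 0.32 with 1 array left out and 0.17 over arrays 2194 to 2199. The small subunit score ranged over 0.63 with the full range, and on array 2195 it was 0.17 with quantile normalization. Of 909 values of single members, 67 moved, in 39 members. Where the setting was not one that narrows or widens a range by construction, the cause was not tested. Depth does not apply to arrays, and signals near the floor limit the weak members, above all Rps4y2, Rpl28, Rps13, Rpl26l1 and Rpl37-ps2. No paired analysis was possible because the labels give no groups and no replicate numbers.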
